A study of Bos taurus with 36 samples.

Results

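The genes described here encode 10 proteins that the fetal liver secretes into plasma: AFP (Entrez 506011), ALB (280717), TTR (280948), AHSG (280988), FETUB (504615), AMBP (280996), ORM1 (497200), ITIH1 (508356), ITIH2 (512164) and ITIH3 (508355). They were taken by symbol from the bovine RefSeq gene table and make up 10 of the 35092 genes in the count table. RNA-seq counts came from organs of 10 male bovine fetuses collected at 42 days of gestation and from maternal blood. In the ET_D7 group a Day 7 embryo was placed in a uterus on Day 7 of the cycle, and in the ET_D9 group an embryo of the same age was placed in a uterus on Day 9. Each group gave 5 fetuses, numbered here by weight: fetuses 1 to 5 (ET_D7) weighed at most 1.37 g and fetuses 6 to 10 (ET_D9) at least 1.396 g. Weight and transfer group therefore cannot be told apart across the whole range, which ran from 1.253 to 1.69 g. By its label each organ library came from 1 fetus. There were 8 liver libraries (5 ET_D7, 3 ET_D9), 9 heart libraries, 9 libraries labelled gonads and 10 of maternal blood.

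Plasma proteins of the fetus are made mainly by hepatoblasts and hepatocytes, which share the liver at this stage with blood-forming cells. AFP, alpha-fetoprotein, is the fetal relative of ALB, albumin, the main carrier and osmotic protein of adult plasma, and the genes lie side by side. In many mammals AFP is abundant in the fetal liver and is silenced around birth, while ALB is kept. TTR, transthyretin, carries thyroid hormone and, with a partner protein, retinol. AHSG (fetuin-A) and FETUB (fetuin-B) are neighbouring genes of the cystatin superfamily: fetuin-A binds mineral in plasma, and fetuin-B inhibits a protease that hardens the egg coat. AMBP encodes a precursor that is split into alpha-1-microglobulin, a haem-binding carrier, and bikunin, the light chain of the inter-alpha-trypsin inhibitors. ITIH1, ITIH2 and ITIH3 encode heavy chains that are joined to bikunin and later passed to hyaluronan. ORM1 encodes alpha-1-acid glycoprotein, an acute-phase carrier of small molecules. In the ARS-UCD2.0 gene table no protein-coding gene separated ALB from AFP, AHSG from FETUB or ITIH1 from ITIH3, and 2 genes (KIF12 and COL27A1) lay between AMBP and ORM1.

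Some deposited libraries were not independent of each other, which limits every result below. The livers of fetuses 1 and 2 differed by less than sampling noise over 10602 genes: the median chi-square was 0.212 times the value that noise alone gives, and 12.4 to 54.5 times in the other liver pairs. They were counted as 1 sample. The liver of fetus 9 equalled a weighted sum of the livers of fetuses 8 and 10 (weights 0.382 and 0.526) within noise, with a residual of 0.265 times noise and no member off by more than 2.72%. In the gonads, fetuses 6 and 8 had an almost constant ratio, within 0.2% of 1.27 for 89.1% of the 6623 genes with over 1000 counts in each. The heart of fetus 1 lay close to a weighted sum of the hearts of fetuses 2, 3 and 5 (1.17 times noise). In maternal blood the closest pair differed by 14.8 times noise. Means below use the 6 distinct livers, 8 hearts and 8 gonad libraries that remain, and tests were run on all libraries and on the distinct ones. Nothing in the labels names the cause, which was not tested. Total counts were 18231089 to 34454772 in the livers, 20930367 to 35857434 in the hearts, 22762065 to 39649051 in the gonads and 26602415 to 40812354 in blood.

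The liver libraries carried all 10 genes at high levels. Together they took between 1.54% of all liver counts (fetus 4) and 2.91% (fetus 5), with a median of 2.51%. Mitochondrially encoded genes took 16.3% to 36.8% of liver counts, and without them the 10 genes held 2.44% to 3.83%. AFP alone gave 91916 to 352689 counts per liver, with a median of 208640 and a share of 0.455% to 1.02%. ALB gave 14683 to 70682 counts and TTR 8670 to 31660. The fetuins stood at 46541 to 156233 counts (AHSG) and 28796 to 128530 (FETUB). AMBP gave 19825 to 60023 counts and ORM1 36942 to 116717. Among the heavy chains ITIH1 had the fewest counts, 1100 to 5295, followed by ITIH2 at 9073 to 30902 and ITIH3 at 27542 to 90931. Shares of counts were not divided by transcript length, so they do not rank the transcripts of different genes.

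The libraries labelled liver carried liver markers: all 7 hepatocyte markers (HNF4A, CPS1, ASGR1, ASGR2, TAT, APOB and TDO2) and all 8 erythroid markers were higher in the liver than in the heart and in the gonads. Of all genes 23.1% were called higher than in both. So were 5 of 6 Kupffer cell and macrophage markers and 4 of 5 neutrophil granule markers. Only 1 of 6 endothelial, 1 of 6 stellate and fibroblast and 0 of 5 bile duct cell markers were. Summed hepatocyte markers ran from 1893 to 3363 CPM in the livers, 0.483 to 2.41 CPM in the hearts and 5.78 to 7.94 CPM in the gonads. CPM, library-size-scaled counts, in all organ comparisons were TMM-scaled over the 26 organ libraries.

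All 10 genes were higher in the liver than in either other organ, and each gene's lowest liver library lay at least 15.2 times above its highest heart or gonad library. AFP reached 10171 ± 2904 CPM in the liver (SD, n = 6), 0.919 ± 0.821 in the heart (SD, n = 8) and 1.54 ± 1.37 in the gonads (SD, n = 8). ALB reached 1594 ± 462 CPM in the liver, 0.956 ± 0.484 in the heart and 2.0 ± 0.612 in the gonads, with the same n. ITIH1 showed the narrowest gap, at 146 ± 41.4 CPM in the liver against 2.64 ± 1.42 in the heart and 1.24 ± 0.342 in the gonads.

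**Figure D1:**
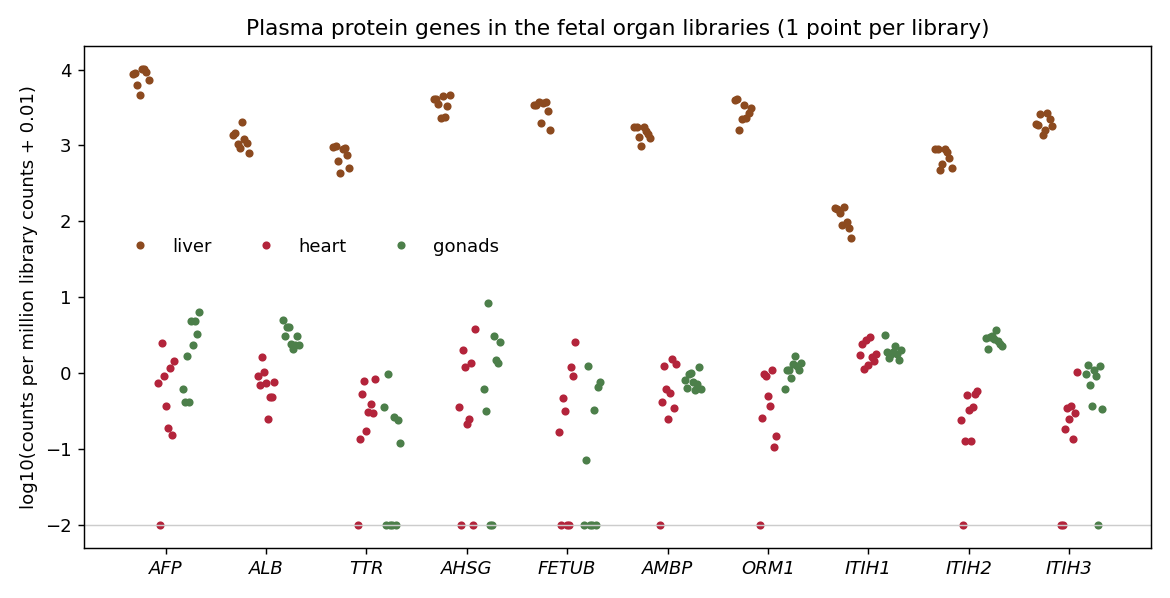
CPM of each gene from library totals (log10 after adding 0.01) in every liver, heart and gonad library, 1 point per library, with libraries at 0 on the lowest line. Every liver point lies above every heart and gonad point of its gene, with the narrowest gap for ITIH1.

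With edgeR's quasi-likelihood test and Benjamini-Hochberg adjustment over 25095 genes, 10 of 10 members were higher in the liver than in the heart, where 30.7% of all genes were called higher. Against the gonads it was also 10 of 10, where 33.6% of all genes were called higher. In 9.72% of genes every liver library lay above every heart and gonad library. The log2 differences ran from 5.78 ± 0.28 (SE) for ITIH1 to 13.33 ± 0.74 for AFP against the heart, with a median of 11.53. Against the gonads they ran from 6.88 ± 0.29 for ITIH1 to 14.13 ± 0.88 for FETUB, with a median of 12.08. The median over all genes tested was 0 in both comparisons. The largest adjusted p among the members was 8.59e-12 against the heart and 7.01e-12 against the gonads. Calls were also 10 of 10 with the distinct libraries and with fetus as a replicate block. Where the other organ holds a few counts, the size of a log2 difference depends on the small count added in the fit. AFP, AHSG, ALB, ITIH1, ITIH2, ITIH3 and ORM1 are also in a liver gene list that the study drew from these samples, so their direction is not independent of that list.

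The wider group of 26 hepatic plasma proteins gave 24 genes with a count. Of these, 22 were higher and 1 was lower in the liver than in the heart, and 20 were higher and 1 was lower than in the gonads. Of all 25095 genes, 7697 were called higher and 6997 lower against the heart, and 8435 higher and 7718 lower against the gonads. KNG1 (kininogen) had the highest difference from the heart, at 14.45 ± 0.69 on the log2 scale (adjusted p = 1.31e-16). HRG, histidine-rich glycoprotein, had the highest difference from the gonads, at 14.61 ± 0.41 (adjusted p = 2.18e-21). At the other end, PON1 was 3.11 lower in the liver than in the heart (adjusted p = 0.0016) and CP, ceruloplasmin, was 1.31 lower than in the gonads (adjusted p = 0.0014), all by edgeR.

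The traces in the other organs were small and did not hold the genes in the liver's proportions. The summed level of the 10 genes had a median of 7.57 CPM in the heart and 9.26 CPM in the gonads, against 30975 CPM in the liver. That is 0.0244% and 0.0299% of the liver level. AFP made up 34.4% of the 10 genes' counts in the liver, 11.6% in the heart and 17.7% in the gonads. ITIH1 made up 0.475% in the liver, 26.1% in the heart and 12.2% in the gonads. ITIH2 made up 3.01%, 3.93% and 17.3% in the same order, and ALB 5.32%, 10.5% and 19.6%. These sums hide differences between libraries. AFP had the highest share in all 8 livers and ITIH1 in 7 of the 9 hearts. In the gonads AFP led in 4 libraries (fetuses 6, 8, 9 and 10, at 20.4% to 34.3%), ALB in 3 (fetuses 1, 3 and 5), AHSG in fetus 4 and ITIH2 in fetus 7.

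**Figure D2:**
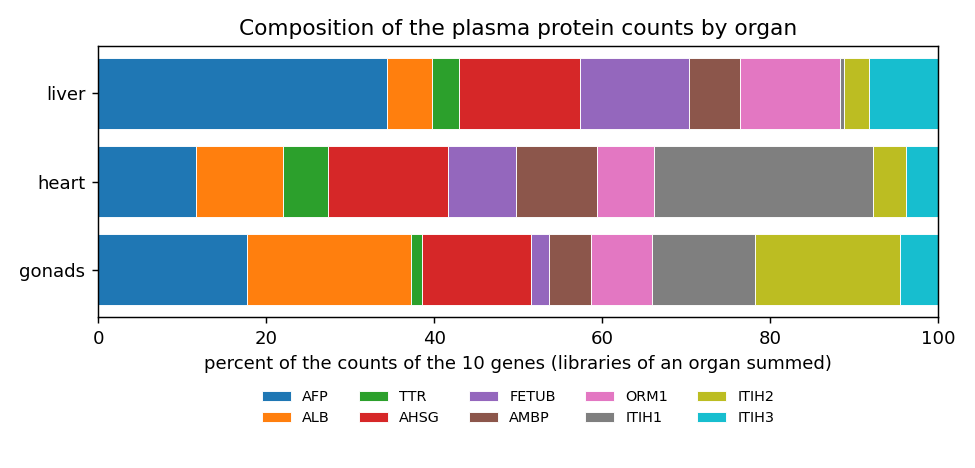
Percent of the summed counts of the 10 genes that each gene contributed in the livers, hearts and gonads, with the libraries of an organ added together. AFP holds the longest segment in the liver (34.4%) and ITIH1 in the heart (26.1%), while in the gonads ALB (19.6%), AFP (17.7%) and ITIH2 (17.3%) are close.

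In the hearts ITIH1 was the one member with at least 30 counts in every library, from 30 to 99 with a median of 51. AFP had 0 counts in the heart of fetus 2 and 86 in that of fetus 3, and ALB had 8 to 55. AHSG, FETUB and ITIH3 all had their highest heart count in fetus 10, at 112, 76 and 30. FETUB had no count in 3 of the 9 hearts, and a count of 0 allows up to 3 counts by counting noise alone. In the gonads ALB (66 to 158 counts), ITIH2 (65 to 121) and ITIH1 (45 to 74) were present in every library. TTR and FETUB had no count in 4 of the 9 gonad libraries. In the gonads of fetuses 6 and 8, with their almost constant ratio, AHSG had 0 and 54 counts and ITIH3 30 and 0. A 0 there can thus stand for more counts than noise allows, and the cause was not tested. The highest gonad counts of AHSG (291), FETUB (42) and TTR (33) were all in fetus 4.

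Between the gonads and the heart 2 members were higher in the gonads and 4 were lower, where 23.1% of all genes were called higher and 23.5% lower. ITIH2 was 2.16 ± 0.28 higher on the log2 scale (adjusted p = 2.83e-07, edgeR) and ALB 0.96 ± 0.25 higher (adjusted p = 0.00225). TTR was lower by 1.89 ± 0.59 (adjusted p = 0.00904), FETUB by 1.74 ± 0.71 (0.0451), ITIH1 by 1.10 ± 0.25 (0.000531) and AMBP by 0.79 ± 0.30 (0.0306). AFP, AHSG, ITIH3 and ORM1 did not pass the test. FETUB was not called in the distinct libraries (adjusted p = 0.0744), and neither FETUB (0.0965) nor AMBP (0.141) was called with fetus as a block. When library totals alone set the scale, the median of all genes moved to 1.07 in favour of the gonads. None of the 4 lower genes was then called: ITIH1 stood at 0.05, AMBP at 0.19, TTR at -0.88 (adjusted p = 0.213, edgeR) and FETUB at -0.84 (adjusted p = 0.339). ITIH2 and ALB were still called higher on that scale, and AFP, ORM1 and ITIH3 were called higher too. Of 8 kidney and mesonephros markers, 7 were also higher in the gonads than in the heart, and their summed level was 336 to 422 CPM against 12.5 to 18.2 CPM. Of the 7 hepatocyte markers 4 were higher in the gonads than in the heart. The part of such cells in the traces was not tested.

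In maternal blood the 10 genes gave 232 counts in all 10 libraries together, and 64 of 100 values were 0. The highest value was 30 counts. ITIH1 had 87 of these counts, ITIH3 52, ITIH2 40 and ORM1 34, while AFP had 4 and FETUB 0. No member had at least 10 counts in at least 4 blood libraries, so no slope over weight could be fitted, and a change was not detectable at this depth. Blood libraries were made with another kit than organ libraries and were not compared with them.

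Within the liver the 10 genes did not move as a block. Over the 6 distinct livers, 36 of 45 pairs of them had a Pearson r above 0 (median 0.36), given as a description. Liver CPM in the following paragraphs were scaled over the 8 livers unless another scale is named. The summed level ran from 18842 CPM in fetus 4 to 26733 in fetus 1, a 1.42-fold range. Single genes had wider ranges on this scale, from 1.56-fold for AMBP to 3.10-fold for FETUB. With TMM over the 26 organ libraries the summed level had a 1.71-fold range. AMBP (1399 to 2279 CPM) and AHSG (3283 to 5420 CPM) then had narrower ranges than the sum. On the log2 scale the SD over the 6 distinct livers was 0.24 for AMBP, 0.33 for AFP, 0.45 for ALB, 0.55 for ITIH1 and 0.58 for FETUB. Fetus 10, the heaviest, had the lowest level of 6 of the 10 genes: ALB, TTR, FETUB, AMBP, ITIH1 and ITIH2. By library totals this was so for 3 of them (ALB, FETUB and ITIH1), and with TMM over the 26 organ libraries for 5, all but AMBP. The share of all genes lowest in fetus 10 was not computed. Scaled over the livers, the summed wider hepatic plasma proteins were also lowest there (14970 CPM). So were the hepatocyte, endothelial, Kupffer cell, stellate, neutrophil, kidney and cardiac marker sums, but not the erythroid and bile duct sums. The AHSG level of fetus 10, 4038 CPM, was close to the highest of the 8 livers (4113 CPM, fetus 5).

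The other cell types of the liver varied as well. Summed erythroid markers were lowest in fetus 8 (2705 CPM) and highest in fetus 10 (4261 CPM). Summed hepatocyte markers had the opposite ends on this scale, with the highest value in fetus 8 (2299 CPM) and the lowest in fetus 10 (1445 CPM). With TMM over all organ libraries the highest values stayed in fetus 8 (hepatocyte, 3363 CPM) and fetus 10 (erythroid, 5718 CPM). The lowest values moved. Hepatocyte markers were then lowest in fetus 4 (1893 CPM, against 1939 CPM in fetus 10). Erythroid markers were lowest in fetus 3 (3650 CPM, against 3956 CPM in fetus 8). In bulk libraries fewer cells of a type and less RNA per cell cannot be told apart, and the part of cell composition in the members' levels was not tested. Kupffer cell and macrophage markers summed to 112 to 176 CPM, stellate and fibroblast markers to 261 to 540 CPM, endothelial markers to 95.3 to 189 CPM, bile duct cell markers to 31.0 to 64.4 CPM, neutrophil granule markers to 34.1 to 79.5 CPM and cardiac muscle markers to 10.9 to 108 CPM.

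AMBP had the steadiest ratios to other members. Over the 6 distinct livers the log2 ratio of AFP to AMBP had an SD of 0.19 and that of TTR to AMBP an SD of 0.21, against a median of 0.45 over all 45 pairs. TTR and AMBP had a Pearson r of 0.99 over these 6 livers, given as a description. The pairs with the widest ratios were FETUB to ORM1 (SD 0.78), ORM1 to ITIH3 (0.74) and AHSG to FETUB (0.72). The width of the fetuin ratio depended on fetus 10: without it the SD was 0.41, against a median of 0.39 over all pairs in the same 5 livers, and 18 pairs had a wider ratio. AMBP, the light chain gene, had an SD of 0.25 to ITIH2, 0.40 to ITIH1 (0.25 without fetus 10) and 0.41 to ITIH3. Between heavy chains the SD was 0.42 for ITIH1 to ITIH2 (0.24 without fetus 3), 0.59 for ITIH2 to ITIH3 and 0.60 for ITIH1 to ITIH3.

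AFP ranged from 5566 CPM in fetus 4 to 10167 CPM in fetus 8, with a median of 8593 CPM. ALB ranged from 715 CPM in fetus 10 to 1861 CPM in fetus 5, with a median of 1212 CPM. The ET_D7 and ET_D9 livers overlapped for both genes. TTR ran from 443 to 941 CPM (median 774), AMBP from 1107 to 1721 (median 1519) and ORM1 from 1823 to 3910 (median 2738). FETUB ran from 1403 CPM in fetus 10 to 4352 in fetus 3 and ITIH3 from 1458 in fetus 5 to 2994 in fetus 3. ORM1 had its lowest level in fetus 3.

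**Figure D3:**
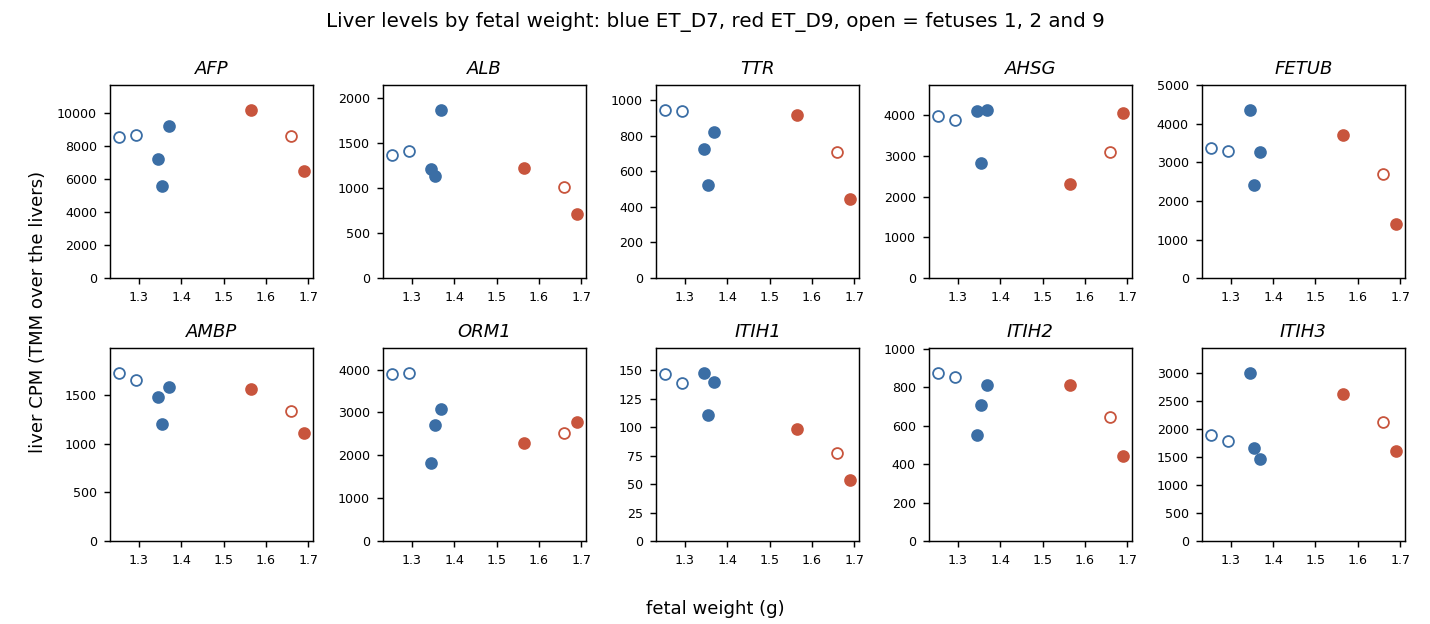
Level of each gene (CPM, TMM over the livers, axes from 0) against fetal weight in g, 1 point per liver library, blue for ET_D7 and red for ET_D9, open for fetuses 1, 2 and 9, whose libraries were not independent. ITIH1 shows the ET_D9 livers (53.6 to 98.2 CPM) below the ET_D7 livers (111 to 147 CPM), while the groups overlap for the other 9 genes.

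Variation over fetal weight was asked with a natural spline of 3 degrees of freedom in edgeR. It called 0 of 10 members at an adjusted p under 0.05, where 1.81% of 16605 genes were called. At an unadjusted p under 0.05 it picked 1 member, ITIH1 (p = 0.00223, adjusted p = 0.0943, edgeR), against 17.9% of all genes. DESeq2 called 1 member, ITIH1. Additive models with negative binomial errors, the kind of model the study used, called 2 (ITIH1, and ALB with an adjusted p of 0.0493). These tools called 1765 and 5138 of the 16605 genes. The study kept genes at p < 0.05 and names no adjustment. At an unadjusted p under 0.05 the additive model also picked AMBP (p = 0.0363), and 6719 of the 16605 genes passed.

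A straight line over weight gave 8 negative and 2 positive slopes, with a median of -0.10 on the log2 scale per 0.1 g against -0.01 over all genes tested. ITIH1 fell with weight in the test on 8 libraries, where 1.79% of all genes were called lower and 0.44% higher. Its level was 147, 139, 147, 111 and 139 CPM in fetuses 1 to 5 and 98.2, 77.2 and 53.6 CPM in fetuses 8, 9 and 10. All ET_D9 livers lay below all ET_D7 livers on this scale, as 14.7% of genes had groups that did not overlap, whereas with TMM over the 26 organ libraries, and by library totals, the groups overlapped. The slope was -0.28 ± 0.05 per 0.1 g (adjusted p = 0.032, edgeR). In the 6 distinct libraries the slope was -0.30 ± 0.09 and the call was lost (adjusted p = 0.296, edgeR). It was also lost with transfer group as a covariate (-0.35 ± 0.17, adjusted p = 0.664) and when fetus 1, 2, 5, 8, 9 or 10 was left out (adjusted p of 0.0519 to 0.199).

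ALB had a slope of -0.17 ± 0.07 per 0.1 g (unadjusted p = 0.0416, adjusted p = 0.265, edgeR), and 17.2% of all genes had an unadjusted p under 0.05. FETUB had -0.15 ± 0.09, ITIH2 -0.12 ± 0.07, TTR -0.11 ± 0.08, ORM1 -0.10 ± 0.08, AMBP -0.08 ± 0.05 and AHSG -0.05 ± 0.07, none of them called. AFP (0.00 ± 0.08) and ITIH3 (0.01 ± 0.09) were near 0, and the sign of both turned in some fits without 1 liver. Of the wider list of hepatic plasma proteins, 20 of 26 were tested: 0 were called, 3 had an unadjusted p under 0.05 and 17 slopes were negative, with a median of -0.12. The 7 hepatocyte markers had a median slope of -0.05 and the 8 erythroid markers one of 0.02, with no call in either list.

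**Figure D4:**
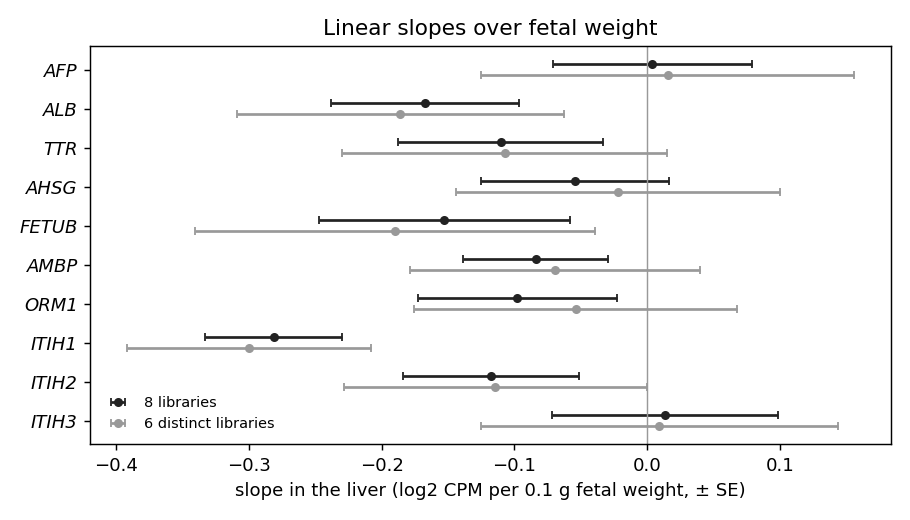
Slope of each gene over fetal weight in the liver (log2 CPM per 0.1 g, points with SE bars) from edgeR, in black for all 8 libraries and in grey for the 6 distinct ones. ITIH1 lies farthest from 0 (-0.28 and -0.30), and AFP and ITIH3 lie at 0.

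The ratio of AFP to ALB counts within a liver does not depend on library scaling. It was 6.27, 6.15, 5.98, 4.92 and 4.94 in fetuses 1 to 5 and 8.34, 8.51 and 9.12 in fetuses 8, 9 and 10. Every ET_D9 liver lay above every ET_D7 liver, and within ET_D7 fetuses 1 to 3 lay above fetuses 4 and 5. The log2 ratio had a Pearson r of 0.83 with weight (exact permutation p = 0.020, two-sided, n = 8, adjusted p = 0.080 over 4 ratios) and a Spearman rho of 0.55 (exact permutation p = 0.171). In the 6 distinct livers r was 0.84 (exact permutation p = 0.0542) and rho 0.49 (p = 0.356). Without 1 liver at a time r ran from 0.75 to 0.89, and no adjusted p over the 4 ratios was under 0.0869 (exact permutation tests). Leaving out the 2 fetuses whose weights lay farthest from the median, 9 and 10, gave r = 0.58 (n = 6). Those are 2 of the 3 ET_D9 livers, so fetus 8 was the only ET_D9 liver left. This value cannot show which samples the relation rested on. After subtracting transfer group means, r was -0.42 (permutation p = 0.282). That p is approximate, because the centred values were permuted across the groups. The groups went opposite ways: the ratio was lower in fetuses 4 and 5 than in 1 to 3, but rose from fetus 8 to 10. This r therefore does not describe each group, and the livers of fetuses 1, 2 and 9 were not independent.

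In the distinct livers the log2 ratio of AFP to ALB was 3.06 and 3.19 in the 2 ET_D9 livers and 2.45 ± 0.18 in ET_D7 (SD, n = 4), a difference of means of 0.67. The groups were compared after their values had been seen, so this is given with no test. Transfer group and fetal weight cannot be told apart here.

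**Figure D5:**
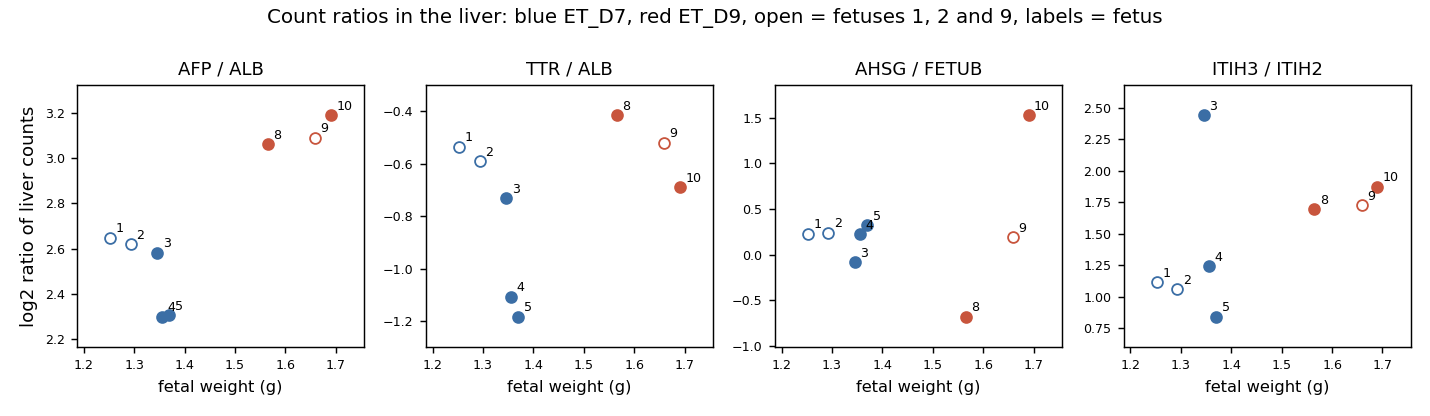
Log2 ratio of liver counts for 4 pairs of genes against fetal weight in g, 1 point per liver library labelled by fetus, blue for ET_D7 and red for ET_D9, open for fetuses 1, 2 and 9. The AFP to ALB ratio is above 8.3 in the 3 ET_D9 livers and at most 6.27 in the 5 ET_D7 livers, and the other ratios overlap between the groups.

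No ratio had a relation with weight that passed the adjusted test, AFP to ALB included. TTR to ALB ran from 0.441 in fetus 5 to 0.749 in fetus 8 (r = 0.31, exact permutation p = 0.462, rho = 0.12, p = 0.793, n = 8). After subtracting transfer group means it gave a negative relation that did not pass the adjusted test (r = -0.80, permutation p = 0.0233, adjusted p = 0.0934 over the 4 ratios). These p-values are approximate, because the centred values were permuted across the groups. AHSG to FETUB ran from 0.626 in fetus 8 to 2.88 in fetus 10, with 0.944 to 1.25 in the others (r = 0.31, exact permutation p = 0.508, rho = 0.07, p = 0.882, n = 8). ITIH3 to ITIH2 ran from 1.79 in fetus 5 to 5.42 in fetus 3, with 3.24 to 3.66 in the ET_D9 livers (r = 0.45, exact permutation p = 0.255, rho = 0.43, p = 0.299, n = 8). This value depended on fetus 3: without it r was 0.91 (exact permutation p = 0.0151, adjusted p = 0.0603, n = 7), and without any other single liver it was at most 0.43. Adjusted over the 4 ratios, the p-values of TTR to ALB, AHSG to FETUB and ITIH3 to ITIH2 over all 8 livers were all 0.508. Leaving out the 2 fetuses farthest from the median weight gave r = 0.19 for TTR to ALB, -0.87 for AHSG to FETUB and 0.30 for ITIH3 to ITIH2 (n = 6).

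Some genes outside the group followed AFP or ALB closely over the 8 livers, given as a description. Of 8071 other genes with a mean of at least 10 CPM, those with the highest Pearson r of log2 CPM with AFP were NFE2L3 (0.99), PAXBP1 (0.99), SH2B1 (0.99), TOP3A (0.99) and MED24 (0.99). For ALB they were BCL6 (0.99), CHST15 (0.98), LENG8 (0.98), TDH (0.97) and MAN1B1 (0.97). An r above 0.9 with AFP was found in 2.25% of these genes and with ALB in 0.917%. The 8 libraries are shared by all these values and are not all independent.

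Slopes of the traces were examined after the liver values had been seen. In the gonads AFP stood at 0.378, 0.247, 1.03 and 0.248 CPM in the 4 ET_D7 libraries and at 2.97, 1.5, 2.96, 1.98 and 4.0 CPM in the 5 ET_D9 libraries (fetuses 6 to 10). The groups did not overlap, which was so for 7.64% of 17809 genes. Values and slopes here use all libraries, of which the gonads of fetuses 6 and 8 and the heart of fetus 1 were not independent. The slope was 0.65 ± 0.23 per 0.1 g (unadjusted p = 0.0158, adjusted p = 0.849, edgeR), and it was 0.11 with transfer group as a covariate. In the gonads 0 of 9 tested members were called, 2 (AFP and ALB) had an unadjusted p under 0.05, as did 5.62% of all genes, and 0% of all genes were called. In the hearts 0 of 9 tested members were called, where 6.78% of all genes were, and 1 had an unadjusted p under 0.05, as did 29.1% of all genes. FETUB had the highest slope there, at 0.89 ± 0.29 (adjusted p = 0.078, edgeR). It was called when fetus 3 was left out (adjusted p = 0.0347, edgeR), in a fit that called 3947 of 15907 genes. ALB in the heart stood at 1.09 to 1.56 CPM in ET_D7 and 0.329 to 0.728 CPM in ET_D9, without overlap, as in 9.74% of 16250 genes. By library totals the groups overlapped, at 0.678 to 1.6 CPM in ET_D7 and 0.237 to 0.748 CPM in ET_D9, whereas AFP in the gonads did not overlap on that scale either.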

How the data were processed

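RNA-seq libraries of fetal liver, heart, gonads and maternal blood were analysed. The authors deposited raw counts per gene for 36 libraries: reads were trimmed (Trimmomatic), aligned to ARS-UCD1.3 with STAR 2.7.0b and counted with featureCounts of Subread 2.0.3, after FastQC 0.11.9. Counting options are not given in the sources used here. Of counts from 1 to 50, 63.1% to 86.9% were even in 31 libraries and 48.7% to 59.0% in the livers of fetuses 1, 8 and 10, the heart of fetus 1 and the gonads of fetus 8. In the former 2 counts may be 1 read pair. The noise that libraries were compared with covers counting error only. Samples with a low RNA quality score had been discarded.

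Groups followed the labels. Symbols came from a RefSeq table of ARS-UCD2.0 (31630 of 35092 IDs matched). Of the marker genes, CSF3R was not used here, and 1 hepatocyte marker is not reported here. Counts were fitted with edgeR 4.0.16 (quasi-likelihood test, TMM, Benjamini-Hochberg) in R 4.3.3: organs over all genes with a count, weight over genes that reached 10 counts in 4 or more libraries. Alternatives used DESeq2 1.42.0, mgcv 1.9.3, other scaling and filters, single livers left out, and, chosen after seeing the data, distinct libraries. Exact permutation tests used numpy 2.4.6, with ranks from scipy 1.17.1. Fits were tested on simulated data. p-values measure the spread between libraries, labelled as 1 per fetus within an organ, though some were not independent. The main organ test took the libraries of the same fetus as independent.

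The members and lists were chosen with earlier results of these data known. All 10 members are named. Of each list the genes with the highest and lowest difference are examples, and for AFP and ALB the 5 genes with the highest r. By their labels, organ libraries with the same number came from 1 fetus, so numbers pair them. Deviations of such pairs from the organ means had correlations of -0.08 to 0.17 over 23 pairs.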

Additional observations from a re-analysis of the deposited data

Results flagged for a closer look

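The values of 29 sets of livers, hearts or gonads were searched for a library far from the rest of its group, and 2 were found, where chance gives about 1 in 20. AHSG in the gonads of fetus 4 stood at 5.25 CPM, and the nearest library, fetus 7, was at 1.96 CPM. That library also held the highest gonad counts of FETUB and TTR. The AHSG to FETUB count ratio in the liver of fetus 10 was 2.88, and the nearest was 1.25 in fetus 5. Its AHSG level was near the top of the 8 livers and its FETUB level was the lowest.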

How the results depend on the processing

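The 10 of 10 calls against the heart and against the gonads held in every alternative run: DESeq2, library totals only, no mitochondrially encoded genes, a filter of at least 10 counts in 4 libraries, distinct libraries and fetus as a replicate block. Library totals only moved the median of all genes by -0.91 in the liver against the gonads and by 1.07 in the gonads against the heart, where 4810 genes were called higher and 11960 lower in the first and 12672 higher and 2089 lower in the second, against 8435 and 7718, and 5788 and 5898, with TMM. In the gonads against the heart AMBP (0.19) and ITIH1 (0.048) turned under library totals only, and AHSG turned under the replicate block (-0.46). The block changed no member call but those of FETUB and AMBP. The spline called 1 member with DESeq2, 2 with the additive model, and 0 to 1 without single livers. The linear slope called 0 members with distinct libraries, library totals only or the transfer group covariate, and 0 to 1 without single livers. With that covariate the slopes of AFP (-0.30), AHSG (0.23) and ITIH3 (-0.23) turned. Without single livers AFP ran from -0.024 to 0.081 and ITIH3 from -0.019 to 0.101. With transfer group means removed, r turned for AFP to ALB (-0.42) and TTR to ALB (-0.80). It turned for AHSG to FETUB without the 2 fetuses farthest from the median weight (-0.87), and ran from -0.44 to 0.64 without single livers. Calls of genes in the liver over weight moved from 371 with the linear slope to 151 with distinct libraries, 1518 with DESeq2 and 0 with the covariate, and for the spline from 301 to 572, 971 with library totals only, 1765 with DESeq2 and 5138 with the additive model. No slope could be computed in blood, so none of its alternatives was run. The cause of these changes was not tested. The depth limits the traces, where few counts per library carry each value.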
